A study of Daphnia magna with 335 samples.

Results

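The 12 pools described here are those of whole Daphnia magna exposed to 0.212 or 0.021 µM of 1(2H)-phthalazinone or gabapentin, out of 335 libraries in the series. They were chosen by their labels: the chemical and the level codes D6 (0.212 µM) and D8 (0.021 µM), with replicates A, B and C of each of the 4 groups. They were compared with the 6 pools in solvent, dimethyl sulfoxide (DMSO), of the same exposure, named CON A, B and C and XtraC A, B and C. The question was which transcripts deviate from the solvent pools in both co-tested chemicals at these low levels, and in which direction.

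Daphnia magna is a small freshwater crustacean that reproduces clonally and is used to test water for toxicity. Animals were kept singly in wells for 24 h, and each library came from the joined homogenates of 5 animals of one concentration on one plate, dead animals left out, so a value is an average over animals and tissues. The series held 12 chemicals at 8 levels each, D1 being the highest, with 2 chemicals in each of 6 exposures and 3 pools per level. 1(2H)-Phthalazinone and gabapentin shared the exposure coded C3C4, which held 54 pools: these 12, the 6 DMSO pools and 36 pools at the other levels. All wells carried DMSO, brought to the same share in treated and solvent wells. The labels give no age, sex or clone of the animals. They also do not say how CON and XtraC pools differ, and the letters may stand for the 3 plates, which is an inference. P-values therefore measure the spread between pools.

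Gabapentin is an anticonvulsant drug that binds the α2δ subunit of voltage-gated calcium channels in mammals. 1(2H)-Phthalazinone is a bicyclic lactam, a benzene ring fused to a nitrogen-containing ring, and a building block of several drugs. No structural relation between them was part of the design; they share the exposure and its solvent pools. The assay, TempO-Seq, joins pairs of detector oligonucleotides on their target transcript and counts the joined pairs, so each value belongs to a probe. The probes carry gene identifiers that no source used here pairs with a gene name, so transcripts are given by identifier and no role is assigned to them. In whole animals, fewer cells of a type and less RNA per cell cannot be told apart.

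Depth overlapped between the groups compared, with median totals of 715748 at D6, 620863.5 at D8 and 751219 in DMSO. Total counts were 412492 to 1043347 in the 12 pools (median 657055) and 346696 to 875369 in the 6 DMSO pools. The 10 most counted probes took 27.0% to 31.9% of the counts in the 12 pools. Of the 2378 probes, 1465 passed the filter on low counts over the exposure and were tested. Levels are given as CPM, counts scaled to a common library size, and differences as log2 fold changes with their standard error (SE).

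No probe deviated from DMSO at the threshold used, 0.05 for p-values of edgeR's quasi-likelihood test after Benjamini-Hochberg adjustment. The count was 0 of 1465 (0%) for 1(2H)-phthalazinone at D6 and at D8, for gabapentin at D6 and at D8, for the mean of both levels in each chemical, and for the 12 pools together. The number called in both chemicals was therefore 0 in either direction, and the shared deviation that the choice of these pools presumes was not detected at this threshold. DESeq2 called 1 probe, lower, for 1(2H)-phthalazinone at D6 and 0 in the other contrasts just named. Without the pools of letter A, edgeR called 2 probes, both higher, for 1(2H)-phthalazinone at D8. Over both chemicals, D6 and D8 each had 0 called probes against DMSO, with 94 (6.42%) and 86 (5.87%) at an unadjusted p under 0.05.

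Below that threshold, at an unadjusted p under 0.05, 1(2H)-phthalazinone gave 51 probes at D6 (3.48%) and 69 at D8 (4.71%), and gabapentin gave 66 at D6 (4.51%) and 46 at D8 (3.14%). The mean of D6 and D8 gave 23 probes (1.57%) for 1(2H)-phthalazinone and 29 (1.98%) for gabapentin. The 12 pools together gave 30 (2.05%), of which 16 were higher and 14 lower than in DMSO. Each of these shares was under 5%. The CON and XtraC pools, set against each other, gave 22 (1.5%), and 0 at the adjusted threshold.

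The 16 probes with the smallest p over the 12 pools, 8 in each direction, are described next as the nearest to a deviation in both chemicals. Their log2 fold changes over the 12 pools were 0.18 to 1.69 among the 8 higher and -2.30 to -0.18 among the 8 lower, and none passed the adjusted threshold (adjusted p = 0.999 for each). In all 4 groups the 8 higher probes had a positive log2 fold change. Of the 8 lower ones, 7 had a negative one in all 4 groups, and Dapma7bEVm010872_96691 stood at 0.75 in 1(2H)-phthalazinone at D6. All 4 contrasts share the 6 DMSO pools, and the probes were ranked on their mean, so these signs follow in part from the ranking.

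**Figure D1:**
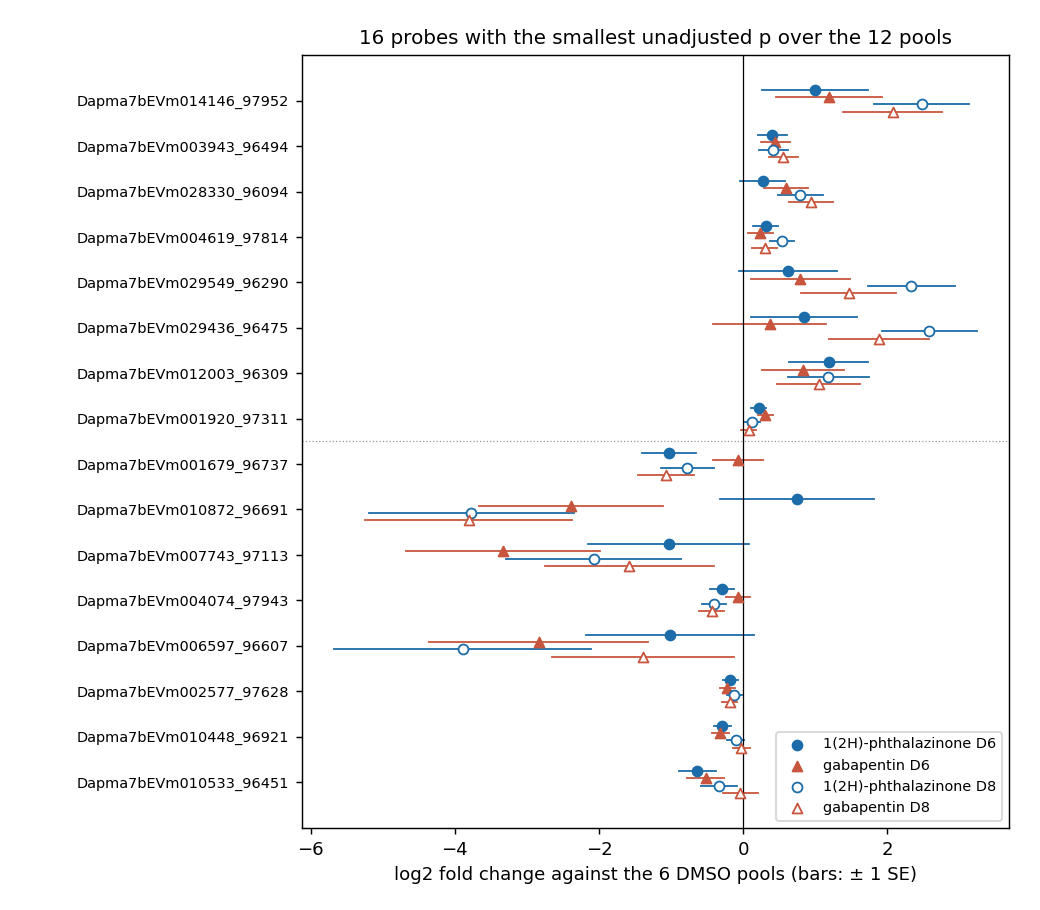
Log2 fold change against the 6 DMSO pools (horizontal axis) of the 16 probes with the smallest unadjusted p over the 12 pools, 8 higher above the dotted line and 8 lower below it, with points for each of the 4 groups and bars of 1 SE. Probes with large differences have wide bars, and Dapma7bEVm010872_96691 has groups on both sides of 0.

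Dapma7bEVm014146_97952 was the first of the higher probes. With 1(2H)-phthalazinone it stood at 10.3, 10.1 and 6.22 CPM at D6 (A, B and C) and at 44.4, 15.1 and 18.5 CPM at D8. With gabapentin it stood at 19.2, 4.94 and 8.72 CPM at D6 and at 31.8, 9.69 and 19.2 CPM at D8. The DMSO pools stood at 15.2, 4.00 and 5.18 CPM (CON) and at 0, 2.34 and 1.34 CPM (XtraC). The D8 pools were the high ones, but the highest DMSO pool, CON A, lay above 7 of the 12 treated pools, so the groups overlapped. Its log2 fold change was 1.74 ± 0.60 (SE) with 1(2H)-phthalazinone and 1.64 ± 0.61 with gabapentin over both levels. CON and XtraC pools differed by 2.17 ± 1.07, a difference larger than either.

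Dapma7bEVm003943_96494 was higher by a smaller amount and with less spread. With 1(2H)-phthalazinone it stood at 103, 148 and 118 CPM at D6 and at 107, 136 and 129.8 CPM at D8. Gabapentin pools had 112, 131 and 138 CPM at D6 and 161, 96.9 and 157 CPM at D8. In DMSO the levels were 80.6, 107 and 105 CPM (CON) and 89.1, 98.2 and 77.4 CPM (XtraC). All 12 treated pools were above the DMSO mean and 10 of them were above every DMSO pool. The log2 fold change over the 12 pools was 0.46 ± 0.15 (unadjusted p = 0.00369, adjusted p = 0.999), and CON minus XtraC was 0.15 ± 0.24. The DMSO pools of the other 5 exposures ran from 44.4 to 236 CPM (median 124), so the 12 pools lay within the range of solvent pools elsewhere in the series.

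Dapma7bEVm028330_96094 was higher mainly at D8. With 1(2H)-phthalazinone it stood at 479, 573 and 521 CPM at D6 and at 839.9, 727 and 691 CPM at D8. In gabapentin pools the levels were 1009, 525 and 434 CPM at D6 and 865, 809 and 826 CPM at D8. DMSO pools had levels of 444, 655 and 230.3 CPM (CON) and 373, 473 and 419 CPM (XtraC). Each of the 6 D8 pools was above every DMSO pool, whereas at D6 only gabapentin A was. The log2 fold change over the 12 pools was 0.65 ± 0.23 (unadjusted p = 0.00669, adjusted p = 0.999).

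Dapma7bEVm004619_97814 had a difference of 0.35 ± 0.12 over the 12 pools. It stood at 96.8, 80.0 and 96.5 CPM with 1(2H)-phthalazinone at D6 and at 120.3, 90.8 and 109.7 CPM at D8. With gabapentin it stood at 85.5, 92.8 and 80.2 CPM at D6 and at 99.8, 82.4 and 89.5 CPM at D8. Levels in DMSO were 65.3, 57.4 and 100.9 CPM (CON) and 78.0, 66.6 and 70.8 CPM (XtraC). The treated pools were all above the DMSO mean, but DMSO pool CON C lay above 10 of the 12. The pools at D7 (0.067 µM) of both chemicals were above DMSO by 0.53 ± 0.14, and the difference of the 12 pools from the other treated levels was 0.02 ± 0.08. Another tested probe of the same gene identifier, Dapma7bEVm004619_97192, had a log2 fold change of 0.14 over the 12 pools.

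Among the lower probes the first was Dapma7bEVm001679_96737, at a low level. It stood at 10.3, 11.3 and 7.78 CPM with 1(2H)-phthalazinone at D6 and at 9.25, 16.5 and 9.27 CPM at D8. Gabapentin pools had 14.0, 19.8 and 24.4 CPM at D6 and 9.08, 7.27 and 12.8 CPM at D8. The DMSO pools stood at 10.9, 29.4 and 25.9 CPM (CON) and at 16.7, 25.7 and 10.7 CPM (XtraC). The groups overlapped: DMSO pools CON A and XtraC C lay among the treated pools, and gabapentin D6 pools B and C lay above XtraC A. The log2 fold change over the 12 pools was -0.74 ± 0.25, and -0.49 without the pools of letter B.

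Dapma7bEVm010872_96691 varied from pool to pool far more than between groups. With 1(2H)-phthalazinone it stood at 25.8, 1456 and 2209 CPM at D6 and at 59.2, 37.2 and 64.9 CPM at D8. In gabapentin pools the levels were 134, 124 and 162 CPM at D6 and 34.0, 7.27 and 117 CPM at D8. In DMSO the levels were 30.5, 2189 and 1813 CPM (CON) and 167, 125 and 32.0 CPM (XtraC). The high values were 4 single pools, CON B and C and the 1(2H)-phthalazinone D6 pools B and C. Its log2 fold change of -2.30 ± 0.79 over the 12 pools became 0.49 when the XtraC pools alone served as controls.

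Dapma7bEVm007743_97113 behaved in a like way, with 1 pool, CON C, setting the DMSO level. It stood at 25.8, 93.6 and 319 CPM with 1(2H)-phthalazinone at D6 and at 88.8, 71.6 and 51.0 CPM at D8. With gabapentin it stood at 22.7, 28.6 and 36.6 CPM at D6 and at 182, 46.0 and 78.3 CPM at D8. DMSO pools had levels of 47.9, 228 and 1225 CPM (CON) and 150.4, 32.7 and 68.1 CPM (XtraC). Treated and DMSO pools overlapped, and 3 of the 12 treated pools were below every DMSO pool. Its log2 fold change of -2.00 ± 0.75 over the 12 pools became -0.52 without CON C. Another tested probe of the same gene identifier, Dapma7bEVm007743_97914, had a log2 fold change of -0.002 over the 12 pools.

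Dapma7bEVm004074_97943 was lower by 0.30 ± 0.12 on the log2 scale. It stood at 102, 89.1 and 80.9 CPM with 1(2H)-phthalazinone at D6 and at 61.1, 86.7 and 102 CPM at D8. Gabapentin pools had 87.3, 109.6 and 120.3 CPM at D6 and 81.7, 70.2 and 94.3 CPM at D8. Levels in DMSO were 100.2, 121 and 106 CPM (CON) and 100.3, 137 and 97.5 CPM (XtraC). Of the 12 treated pools, 8 were below every DMSO pool, and gabapentin D6 pool C was among the higher DMSO values. The difference ran from -0.45 to -0.15 when pools or letters were left out, at its smallest without letter B and its largest without letter C.

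The remaining 8 of the 16 probes had log2 fold changes over the 12 pools of 1.30 ± 0.50 (Dapma7bEVm029549_96290), 1.42 ± 0.55 (Dapma7bEVm029436_96475), 1.06 ± 0.43 (Dapma7bEVm012003_96309) and 0.18 ± 0.08 (Dapma7bEVm001920_97311) among the higher ones. The lower ones stood at -2.28 ± 0.92 (Dapma7bEVm006597_96607), -0.18 ± 0.07 (Dapma7bEVm002577_97628), -0.18 ± 0.08 (Dapma7bEVm010448_96921) and -0.38 ± 0.17 (Dapma7bEVm010533_96451). Dapma7bEVm006597_96607 rested on DMSO pool CON B, at 81.4 CPM against 0 to 12.0 in the other 5, and its log2 fold change ran from -3.68 to -0.30 (the latter without CON B) when single pools or letters were left out. That of Dapma7bEVm010448_96921 ran from -0.30 to -0.06, the latter without the pools of letter A. Dapma7bEVm012003_96309 was at 0.69 without the pools of letter B. Dapma7bEVm002577_97628 had 10 of 12 treated pools below every DMSO pool, at a log2 difference of 0.18 in size. None of the 1465 probes had all 12 treated pools on one side of all 6 DMSO pools (0 probes, 0%).

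Level by level, the probes at an unadjusted p under 0.05 in both chemicals were few and all moved the same way in both. At D6 there were 14 such probes, 6 higher and 8 lower, or 27.5% of the 1(2H)-phthalazinone list and 21.2% of the gabapentin list. At D8 there were 23, 17 higher and 6 lower, or 33.3% of the list of 69 for 1(2H)-phthalazinone and 23 of the 46 for gabapentin. Probes in opposite directions numbered 0 at either level, and the D6 and D8 lists had 0 probes in common. Over the mean of both levels 3 probes remained below that p in both chemicals, all higher: Dapma7bEVm014146_97952, Dapma7bEVm003943_96494 and Dapma7bEVm028330_96094.

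The contrasts of both chemicals share the same 6 DMSO pools. With CON pools as controls for one chemical and XtraC pools for the other, so that no library is shared, the counts were smaller. This split also leaves fewer control pools for each chemical, and the part of either change in the smaller counts was not tested. List sizes are given for 1(2H)-phthalazinone first, with CON and then with XtraC pools as its controls. At D6 the counts in the same direction were 2 (lists of 22 and 75) or 4 (69 and 39), with 0 or 2 in opposite directions. At D8 they were 8 (lists of 79 and 32) or 7 (40 and 37), with 1 or 0 in opposite directions. Over both levels they were 0 (lists of 23 and 25) or 1 (24 and 21). Each list held 1.43% to 5.39% of the 1465 tested probes.

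The 14 probes at D6 were of 2 sizes. Dapma7bEVm028854_97868 (-5.02 with 1(2H)-phthalazinone and -4.81 with gabapentin), Dapma7bEVm027644_97765 (-6.26 and -5.41) and Dapma7bEVm002063_97559 (-4.20 and -5.14) had the largest differences, with SE of 1.94 to 2.85. In each of these some DMSO pools were high and others at or near the D6 levels. Dapma7bEVm027644_97765 stood at 150, 0 and 3.88 CPM (CON) and at 11.1, 0 and 131 CPM (XtraC), against 0 to 3.49 CPM at D6. The other 11 differed by 0.22 to 0.63 on the log2 scale in size. At D8 the 17 higher probes ranged from 0.23 to 2.94, and 10 of them were over 2-fold in both chemicals. Examples are Dapma7bEVm029436_96475 (2.58 with 1(2H)-phthalazinone and 1.88 with gabapentin), Dapma7bEVm006156_97378 (2.41 and 2.94) and Dapma7bEVm029549_96290 (2.33 and 1.46), named after their values were seen. None of these passed the adjusted threshold.

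The 2 chemicals were also compared with each other, which uses no DMSO pool. At D6 0 probes differed at the adjusted threshold and 21 (1.43%) at an unadjusted p under 0.05. At D8 the counts were 0 and 11 (0.751%), and over both levels 0 and 12 (0.819%). For Dapma7bEVm003943_96494 the difference, 1(2H)-phthalazinone minus gabapentin, was -0.04 at D6 (95% interval -0.50 to 0.41) and -0.14 at D8 (-0.60 to 0.32). For Dapma7bEVm028330_96094 it was -0.32 at D6 (-1.03 to 0.39) and -0.15 at D8 (-0.85 to 0.56). For Dapma7bEVm028854_97868 the interval at D6 ran from -5.35 to 4.94, so with 3 pools a group a difference in probes this variable was not detectable unless very large.

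A larger contrast lay between the levels. Over both chemicals, the D6 pools and the D8 pools stood apart from each other in a set of probes, with the DMSO pools spread over both levels. Against DMSO, neither level had a called probe in edgeR. The comparison of D6 with D8 was chosen after the values were seen. In the 54-library fit it had 356 probes (24.3%) at an unadjusted p under 0.05, 185 higher at D6 and 171 higher at D8, but 0 (0%) at the adjusted threshold, with a smallest adjusted p of 0.0673. When only the 18 pools of the 4 groups and DMSO were fitted, edgeR called 143 of 1430 probes (10%), 55 higher at D6 and 88 higher at D8. DESeq2 on the 54 libraries called 71 (4.85%), 25 higher at D6 and 46 higher at D8. Limma, edgeR with size factors of the DESeq2 kind, and edgeR without the filter on low counts each called 0, with 340, 359 and 432 at an unadjusted p under 0.05. With the replicate letter as a block, edgeR called 169, 86 higher at D6 and 83 higher at D8. Leaving out one library or letter in the 54-library fit gave 0 to 3 called probes, with 3 without 1(2H)-phthalazinone D8 pool C.

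Dapma7bEVm028854_97868 had the largest difference among probes whose D6 and D8 pools did not overlap. At D6 it was near silent, at 25.8, 13.5 and 15.6 CPM with 1(2H)-phthalazinone and at 22.7, 22.7 and 17.4 CPM with gabapentin. At D8 it stood at 1369, 2251 and 40.2 CPM with 1(2H)-phthalazinone and at 2367, 763 and 2021 CPM with gabapentin. The DMSO pools stood at 912, 29.4 and 29.8 CPM (CON) and at 1309, 26.9 and 1322 CPM (XtraC). Thus 5 of 6 D8 pools and 3 of 6 DMSO pools were high, and the 6 D6 pools, 1(2H)-phthalazinone D8 pool C and the other 3 DMSO pools were low. D6 minus D8 was -6.19 ± 1.70 over both chemicals (adjusted p = 0.0718 in 54 libraries, 0.00792 in 18), -6.05 ± 2.40 with 1(2H)-phthalazinone and -6.33 ± 2.41 with gabapentin.

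Dapma7bEVm002063_97559 had the same arrangement of pools. At D6 it stood at 7.75, 21.4 and 31.1 CPM with 1(2H)-phthalazinone and at 14.0, 9.88 and 6.98 CPM with gabapentin. At D8 it stood at 734, 586 and 168 CPM and at 1051, 432 and 852 CPM. In DMSO the levels were 797, 29.4 and 64.7 CPM (CON) and 565, 8.18 and 764 CPM (XtraC). The lowest D8 pool, 1(2H)-phthalazinone C, was above the highest D6 pool, and the DMSO pools covered nearly the whole range. D6 minus D8 was -5.43 ± 1.53 (adjusted p = 0.0718 in 54 libraries, 0.00628 in 18).

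In Dapma7bEVm022900_96422 the D6 pools stood at 6.45, 16.9 and 12.4 CPM with 1(2H)-phthalazinone and at 5.24, 9.88 and 3.49 CPM with gabapentin. The D8 pools stood at 237, 244 and 121 CPM and at 438, 199 and 324 CPM. DMSO pools had levels of 396, 8.005 and 18.1 CPM (CON) and 173, 8.18 and 368 CPM (XtraC). Every D8 pool was high and every D6 pool low, and CON A, XtraC A and XtraC C were the high DMSO pools, as in the 2 probes before. D6 minus D8 was -4.78 ± 1.497 (adjusted p = 0.0774 in 54 libraries, 0.00792 in 18).

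Dapma7bEVm028499_97764 had 0 counts in all 6 D6 pools. At D8 it stood at 14.8, 8.26 and 3.09 CPM with 1(2H)-phthalazinone and at 13.6, 12.1 and 15.98 CPM with gabapentin. Levels in DMSO were 13.1, 0 and 0 CPM (CON) and 16.7, 0 and 10.7 CPM (XtraC). The same 3 DMSO pools were high. The D8 pools held few counts too: 8, 6 and 2 with 1(2H)-phthalazinone and 6, 10 and 10 with gabapentin. Against a floor of 3 counts over the 6 D6 pools, which is 0.671 CPM, the D8 mean of 11.3 CPM was 16.8-fold higher. That value takes the D8 mean as exact.

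The D8 pools were not all alike in these probes. Dapma7bEVm010997_96071 stood at 144, 15.1 and 658 CPM with 1(2H)-phthalazinone at D8 and at 204, 624 and 84.7 CPM with gabapentin at D8. At D6 it stood at 10.3, 6.76 and 4.67 CPM and at 5.24, 7.90 and 8.72 CPM. In the DMSO pools it stood at 542, 307 and 3.88 CPM (CON) and at 11.1, 7.01 and 263 CPM (XtraC). Here 1(2H)-phthalazinone D8 pool C was the highest pool, while it was the lowest D8 pool in Dapma7bEVm028854_97868. CON B was high and XtraC A low, the reverse of Dapma7bEVm028854_97868.

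**Figure D2:**
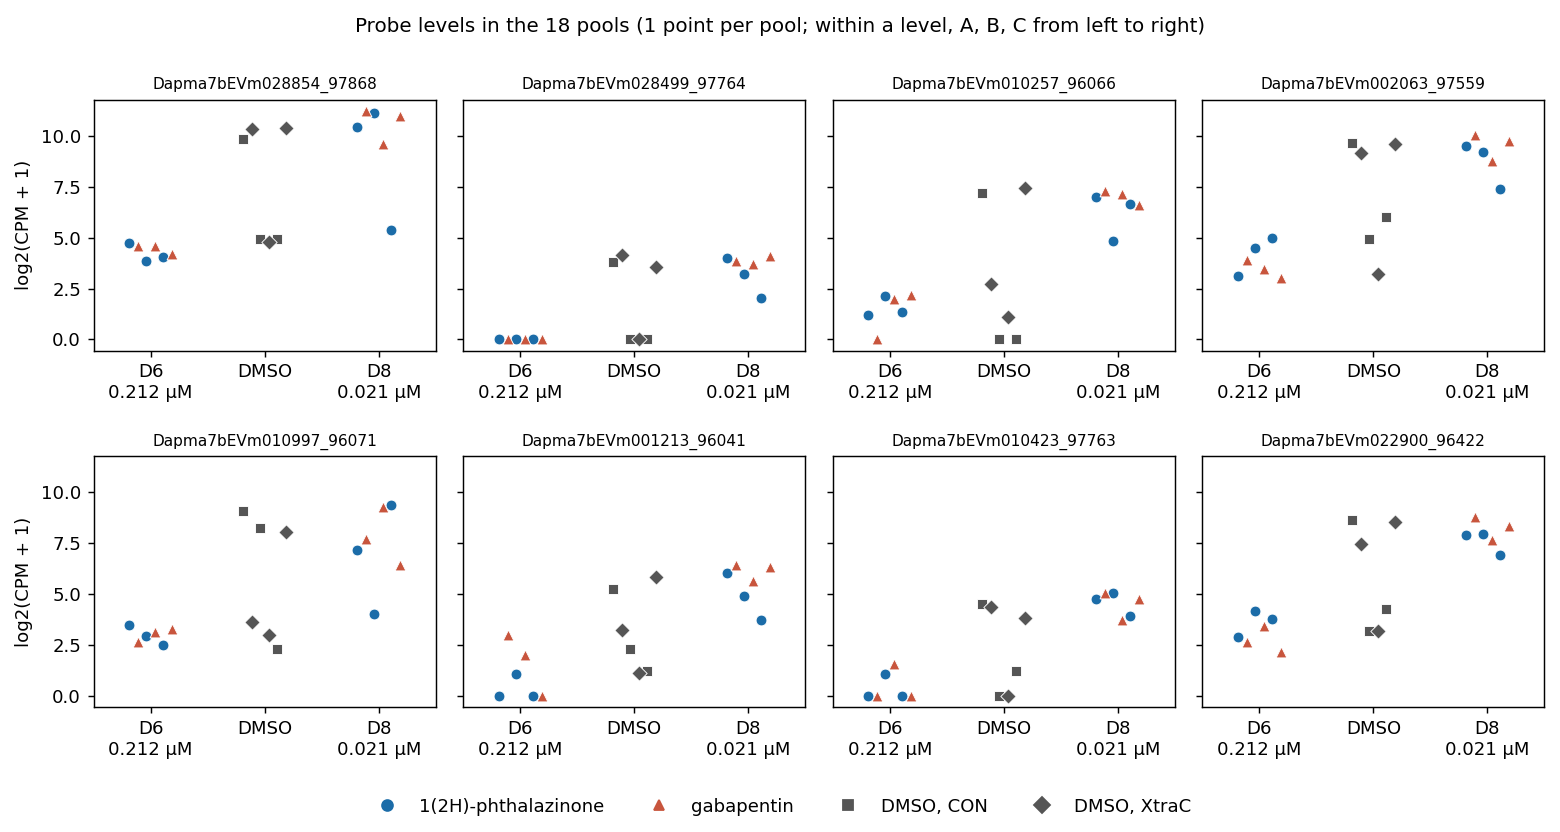
Level of 8 probes, as log2(CPM + 1) on the vertical axis, in each of the 18 pools at D6 (0.212 µM), in DMSO and at D8 (0.021 µM). They are the 8 with the largest log2 fold change among the probes higher in every D8 pool than in every D6 pool; the DMSO pools lie at both ends of the range.

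Over all tested probes, 92 (6.28%) had D6 and D8 pools that did not overlap, 59 higher at D8 and 33 higher at D6. They belonged to 91 gene identifiers. Since they were picked for this separation, differences larger than over all probes follow in part from the choice. The 59 higher at D8 had a median difference of 0.57 on the log2 scale in size, against 0.21 over the 1465 probes; 19 were over 2-fold and 14 over 8-fold, with a largest value of 6.19. The 33 higher at D6 had a median of 0.35 and a largest value of 0.71, and 0 were over 2-fold. Against the DMSO pools fewer probes separated: 11 (0.751%) at D6, 5 higher and 6 lower, and 14 (0.956%) at D8, 10 higher and 4 lower.

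The probes higher at D6 differed by small and even amounts. Dapma7bEVm000262_97458 stood at 227, 256 and 239.6 CPM with 1(2H)-phthalazinone at D6 and at 243, 271 and 258 CPM with gabapentin. At D8 it stood at 142, 178 and 148 CPM and at 186, 156 and 208 CPM. The DMSO pools, at 211, 240.1 and 204 CPM (CON) and 175, 210.4 and 202 CPM (XtraC), overlapped both levels: 3 lay within the D8 range, CON B within the D6 range and the other 2 between them. D6 minus D8 was 0.56 ± 0.14 (adjusted p = 0.0673 in 54 libraries, 0.00364 in 18).

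Dapma7bEVm010250_97553 stood at 147, 167 and 184 CPM with 1(2H)-phthalazinone at D6 and at 129, 144 and 148 CPM with gabapentin. At D8 it stood at 85.1, 97.7 and 100.5 CPM and at 84.0, 94.5 and 95.9 CPM. The DMSO pools stood at 115, 143 and 164 CPM (CON) and at 94.7, 134 and 131 CPM (XtraC). All DMSO pools but XtraC A lay above the highest D8 pool. The difference was 0.71 ± 0.19 (adjusted p = 0.0718 in 54 libraries, 0.00364 in 18).

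Because D6 and D8 pools of one chemical share no library with those of the other, the contrast can be set side by side in both. D6 minus D8 had 180 probes (12.3%) at an unadjusted p under 0.05 with 1(2H)-phthalazinone and 151 (10.3%) with gabapentin, and 0 in either at the adjusted threshold. Of these, 50 were in both lists, 27.8% of the first and 33.1% of the second. All 50 had the same direction, 19 higher at D6 and 31 higher at D8, with 0 opposite. The interaction of chemical and level had 0 probes at the adjusted threshold and 11 (0.751%) at an unadjusted p under 0.05. Of the 1465 probes, 1084 had the same sign in both chemicals. Probes vary together within pools, so that count has no simple chance level. For deviations from DMSO with no library shared, the signs matched in 748 to 972 probes, depending on the level and the controls.

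**Figure D3:**
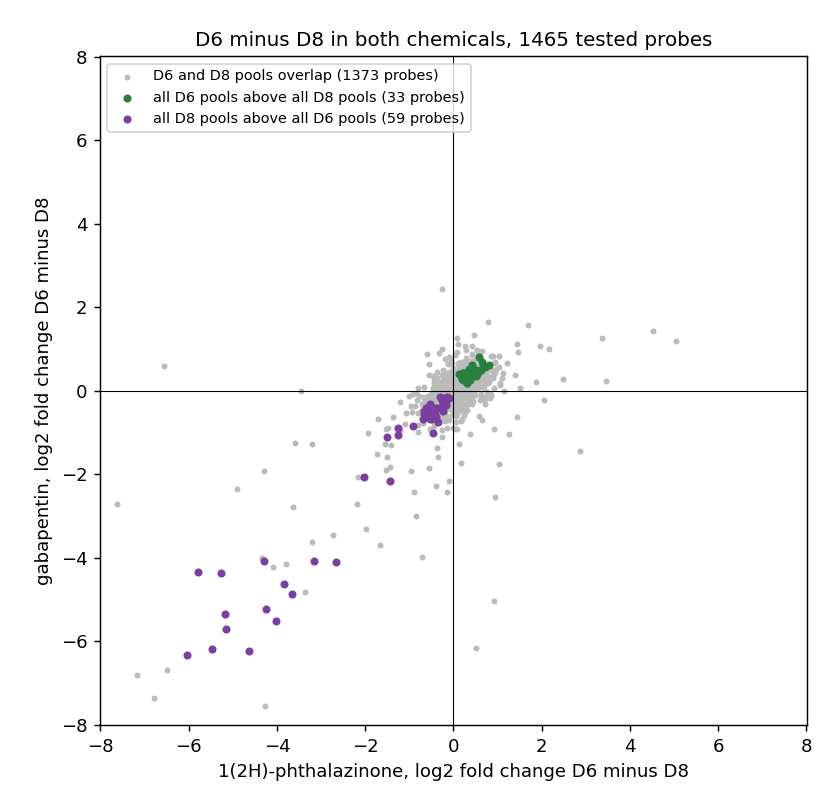
Log2 fold change D6 minus D8 with 1(2H)-phthalazinone (horizontal) and with gabapentin (vertical), 1 point per tested probe, with the 92 probes whose D6 and D8 pools did not overlap in colour. The 59 probes higher at D8 reach down to a log2 fold change of about -6 in both chemicals, and the 33 higher at D6 stay close to the origin.

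For 21 of the 92 probes another probe of the same gene identifier was tested, in 25 pairs. The partner had the same sign of D6 minus D8 in 14 of the 25 pairs. In 0 pairs did both probes separate the levels in the same direction, and in 1 pair (Dapma7bEVm002349_97072 and Dapma7bEVm002349_97117) they separated them in opposite directions, at 0.24 and -0.42.

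The probes that set the levels apart also varied between single pools at the other levels. The first principal component of the 36 other treated pools, which holds 29.2% of their variance in log2 CPM, was computed without the 18 pools, and these were then placed on it. The 6 D6 pools had scores of -13.7 to -10.0 (mean -11.8 ± 1.46 SD) and the 6 D8 pools 2.77 to 10.8 (mean 6.73 ± 2.76 SD). The 6 DMSO pools ran from -12.2 to 9.40 (mean -1.62 ± 9.26 SD), with CON A at 9.40, XtraC C at 8.43 and XtraC A at 0.97 above 0. CON B stood at -9.01, CON C at -7.34 and XtraC B at -12.2.

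D6 and D8 pools did not overlap on this component, while DMSO pools spanned both. D6 minus D8 was -18.6, with p = 0.00216 in a two-sided exact permutation test, the smallest that 6 against 6 allows, and 0.0173 adjusted over the 8 comparisons made. D6 minus DMSO was -10.2 (exact p = 0.0108, adjusted 0.0433) and D8 minus DMSO 8.36 (exact p = 0.0823, adjusted 0.160). These comparisons were chosen after the pattern was seen and are no independent support for it. Within replicate letters D6 was below D8 in 6 of 6 pairs, by 13.1 to 23.3.

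Between the chemicals the scores did not separate. At D6 1(2H)-phthalazinone had a mean of -11.2 ± 1.65 and gabapentin -12.5 ± 1.09 (SD, n = 3 each, exact permutation p = 0.3, adjusted 0.343). At D8 the means were 4.90 ± 2.07 and 8.56 ± 2.16 (exact permutation p = 0.2, adjusted 0.267). With 3 pools against 3 the smallest possible p is 0.1, so these tests could not have reached 0.05. CON minus XtraC was -1.39 (exact permutation p = 1).

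The scores did not follow the concentration. The pools at D7 (0.067 µM), between D6 and D8, had 3 of 6 scores above 0 and 3 below, and each chemical had pools on both sides. Over the 36 other treated pools 20 scores were above 0 and 16 below, from -14.6 to 19.6. A group of 3 pools with scores all on one side of 0 also occurred elsewhere, for 1(2H)-phthalazinone at D3 (5.76 to 19.6) and for gabapentin at D1 (66.67 µM, 3.78 to 8.69).

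**Figure D4:**
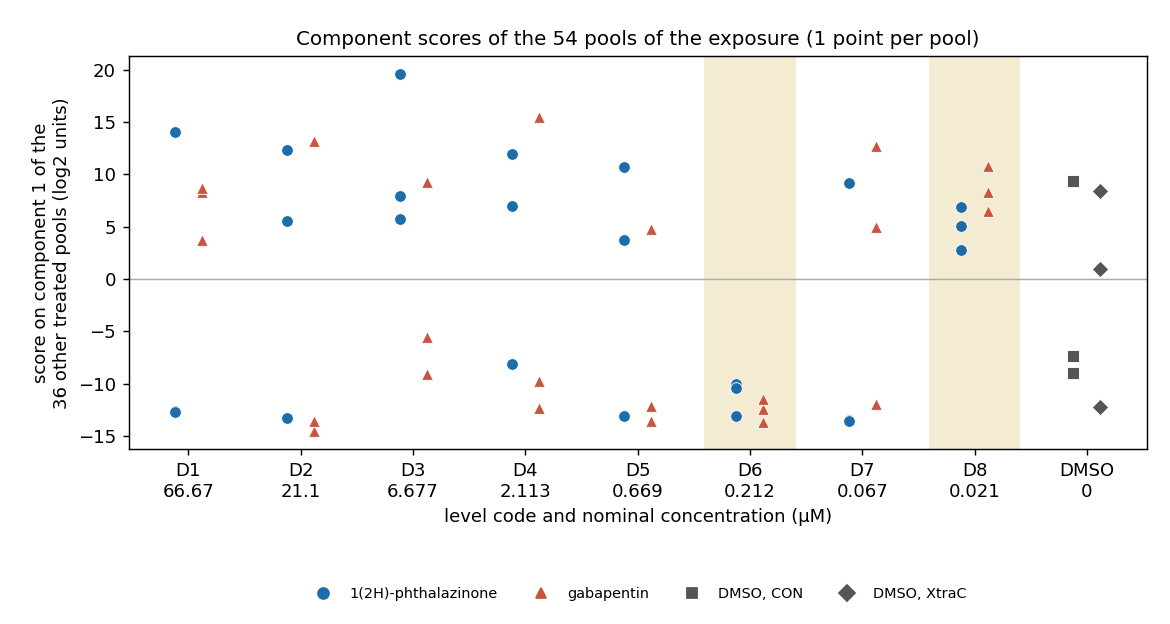
Score of each of the 54 pools on the first component of the 36 other treated pools (vertical axis, log2 units) by level (horizontal axis, nominal µM), with D6 and D8 shaded. The 6 D6 pools lie at -13.7 to -10.0 and the 6 D8 pools at 2.77 to 10.8, while DMSO and most other levels have pools at both ends.

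The 20 probes with the largest weight on the component were all higher at D8 than at D6. Their log2 fold changes D6 minus D8 were -7.07 to -3.21 (median -4.80, against 0.00 over the 1465 probes). The largest rest on counts near 0 at D6, so their size is uncertain. Dapma7bEVm027644_97765 (-7.07 ± 1.93) and Dapma7bEVm010082_95834 (-6.99 ± 2.07) had 0 to 2 counts in each D6 pool. In the 54-library fit of edgeR, 19 of 20 had an unadjusted p under 0.05 and 0 passed the adjusted threshold. DESeq2 called 17 of the 20 on the same libraries, and edgeR called 18 with the 18 libraries only and 16 with the replicate letter as a block. Over all probes, those fits called 71 of 1465 (4.85%), 143 of 1430 (10%) and 169 of 1465. The share of all probes at an unadjusted p under 0.05 was 24.3%. The 20 probes lead the same component, on which D6 and D8 pools were apart, so they are not 20 separate results. In 12 of the 20 no D6 pool reached a D8 pool, while D6 and D8 pools did not overlap in 6.28% of all probes. In the other 8, single D8 pools were low: Dapma7bEVm010637_96034 stood at 41.7 CPM in 1(2H)-phthalazinone D8 pool C against 577 and 1344 CPM in A and B. At D6 the same probe stood at 2.58, 12.4 and 91.8 CPM with 1(2H)-phthalazinone and at 8.73, 5.93 and 3.49 CPM with gabapentin. In the 36 other pools it ran from 0 to 6812 CPM, with a median of 233.

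Library measures moved with the level as well. D6 pools had the larger total in 5 of 6 pairs of the same chemical and letter, a higher share in the 10 most counted probes in 6 of 6, and fewer probes with a count in 6 of 6. Probes with a count numbered 1729 to 1844 at D6, 1801 to 1919 at D8 and 1708 to 1787 in DMSO. The top-10 share was 28.6% to 31.9% at D6, 27.0% to 30.2% at D8 and 27.9% to 31.2% in DMSO. Their part in the result was not tested.

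Set against the 36 other treated pools instead of DMSO, the 12 pools had 0 called probes (0%) and 128 (8.74%) at an unadjusted p under 0.05, 67 higher and 61 lower, with a smallest adjusted p of 0.0711. That smallest value belonged to Dapma7bEVm028330_96094, at 0.62 ± 0.14, and Dapma7bEVm003943_96494 had 0.39 ± 0.10 (adjusted p = 0.0823). DESeq2 called 5 probes in this contrast, 3 higher and 2 lower. At D7 0 probes differed from DMSO in either chemical at the adjusted threshold. At an unadjusted p under 0.05 there were 183 (12.5%) with 1(2H)-phthalazinone, more than at D6 or D8, and 32 (2.18%) with gabapentin.

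The same contrasts were made at D6 and D8 in the other 5 exposures, each with its own 6 DMSO pools. The 12 such pools together had 0 called probes against DMSO in each exposure, with 55 (3.76%) in C7C8 to 114 (7.53%) in C5C6 at an unadjusted p under 0.05, against 30 (2.05%) here. In a joint fit of the treated and DMSO libraries of all 6 exposures, with 1618 probes, the deviation here minus the mean of the other 5 had 0 called probes (0%) and 22 at an unadjusted p under 0.05. DESeq2 called 2 in that contrast, 1 in each direction. Of the 16 probes described first, 14 to 16 were tested in each exposure and 0 or 1 had an unadjusted p under 0.05.

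D6 and D8 pools also differed in other exposures. D6 minus D8 called 100 probes in C1C2 (6.76%), 15 in C11C12 (1.04%), 5 in C9C10 (0.355%) and 0 in C5C6 and C7C8 (0%), where 248 (16.4%) and 145 (9.92%) had an unadjusted p under 0.05. In the joint fit the difference here minus the mean of the others had 25 called probes (1.55%), 24 of them more negative here and 1 more positive. These included Dapma7bEVm022900_96422 (-5.51 ± 1.09), Dapma7bEVm002063_97559 (-5.96 ± 1.22) and Dapma7bEVm028854_97868 (-6.74 ± 1.37), each with an adjusted p of 0.000748 in edgeR's quasi-likelihood test. The contrast was chosen because it was large here, so the difference is a description.

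Part of the probes that differed between D6 and D8 at an unadjusted p under 0.05 did so in the same direction elsewhere, in exposures that share no library with this one. C1C2 had 116 such probes, 32.9% of the list here and 34.9% of its own, with 2 in opposite directions. C5C6 had 83 (23.4% and 34.0%, with 4 opposite), C7C8 had 63 (17.8% and 44.1%, with 0 opposite), C9C10 had 67 (19.3% and 31.8%, with 0 opposite) and C11C12 had 56 (15.95% and 25% of the lists, with 15 opposite). The lists are those of the probes tested in both exposures of a pair. Over all tested probes, in either direction, the share at that p was 23.1% in C1C2, 16.4% in C5C6 and 9.92% in C7C8. It was 15% in C9C10 and 16% in C11C12. These shares count both directions, while the overlaps above count only probes of the same direction, so they are not like measures. The 15.95% in C11C12 was the lowest of the overlaps with the list here, with the most probes in opposite directions.

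Of the 20 component probes, those higher at D8 numbered 4 in C1C2, 12 in C5C6, 6 in C7C8 and 0 in C9C10 and C11C12. On the component itself D6 and D8 pools overlapped in each of the other exposures, with two-sided exact permutation p from 0.128 to 0.926. The component resembled the first component of some exposures and not of others. Its probe weights had an absolute correlation across probes, which are not independent, of 0.925 with the first component of C9C10, 0.765 in C11C12, 0.489 in C7C8, 0.221 in C5C6 and 0.0757 in C1C2. Of its 20 leading probes, 15 were among the 20 leading ones in C9C10 and in C11C12, 6 in C7C8 and 0 in C1C2 and C5C6.

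**Figure D5:**
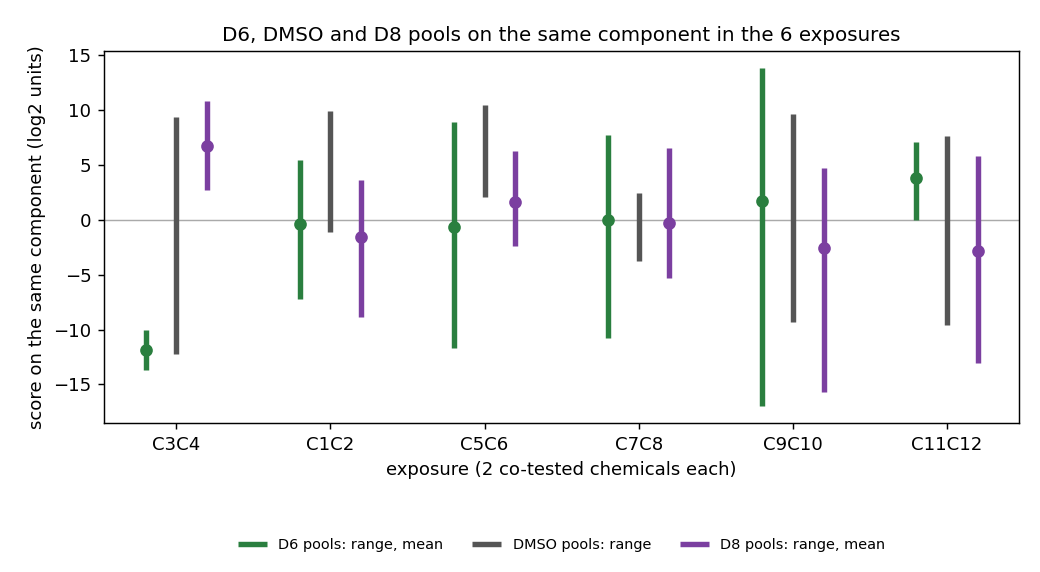
Score on the same component (vertical axis, log2 units, centred within each exposure) of the D6, DMSO and D8 pools in the 6 exposures, as ranges with the means of D6 and D8 as points. D6 and D8 pools are apart in C3C4, the exposure of 1(2H)-phthalazinone and gabapentin, and overlap in the other 5.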

How the data were processed

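TempO-Seq counts of whole Daphnia magna were used, 54 libraries of 1 exposure and, for comparison, the other 5 exposures. Per the file headers and values, the authors deposited whole-number counts per probe with no scaling; of the log2 values the authors deposited per chemical, those of these 2 chemicals equal log2(count + 1) and served only for the concentrations. The submitters' processing notes name bcl2fastq; the program that assigned reads to probes is not given in the sources used here. Columns matched to no sample numbered 0.

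Counts of the 54 libraries were fitted in 1 model with 17 groups in edgeR 4.0.16 (R 4.3.3): TMM scaling, filterByExpr, quasi-likelihood F test and Benjamini-Hochberg adjustment over 1465 probes, with a threshold of 0.05. Log2 CPM had a prior count of 2. Component scores were tested with exact permutation tests, and two-sided p-values are given. Intervals of 95% are from the SE. DESeq2 1.42.0, limma 3.58.1 and other filters, scalings, controls and libraries left out were the alternatives. The tests were checked on simulated counts. Figures were drawn with matplotlib 3.10.9.

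The members, lists and tests were chosen with earlier results of these data known. The named probes are those called in both chemicals, filled to 8 per direction with the smallest unadjusted p over the 12 pools; since 0 were called, all 16 came from that fill. The probes that differ between D6 and D8, the component and the comparisons with other exposures at single levels were chosen after the values were seen. The replicate letters were not taken as pairs: deviations of same-lettered pools from their group means correlated at 0.149 on average over the 18 pools, with 32 of 45 pairs over 0.1. Correlations of log2 CPM between the 18 libraries ran from 0.923 to 0.991, so none was a duplicate. Depth was 412492 to 1043347 counts per pool, and PCR reads without molecular identifiers are not independent molecules, so counting precision is at best that of these totals.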

Additional observations from a re-analysis of the deposited data

Results flagged for a closer look

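On the component described above, the D6 pools of both chemicals scored lower than the D8 pools, by -18.6 on average (D6 minus D8; two-sided exact permutation p = 0.00216, the smallest possible). All 6 D6 pools were below 0 and all 6 D8 pools above it. The contrast was chosen after the values were seen.

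Of 46 groups of pools examined for a pool far from the others, 1 stood out: Dapma7bEVm009911_97045 in the DMSO pools. There XtraC A, at 212 CPM, was separated from the nearest other pool by a gap of 0.713 of the whole range on the log2 scale. The other DMSO pools stood at 366, 452, 455, 441 and 409 CPM. Chance flags about 1 in 20 groups.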

How the results depend on the processing

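Counts of 0 called probes were kept in most alternatives. DESeq2 gave 1 for 1(2H)-phthalazinone D6, 5 for the 12 pools against the other levels, 71 for D6 against D8 and 2 for the difference from the other exposures. D6 against D8 gave 143 with only the 18 libraries and 169 with the replicate block, 86 higher at D6 and 83 higher at D8; the block changed no other call. The 18-library and block lists had 97 probes in common. Without libraries under 50% of the median total, 3 probes differed from the other levels. Leaving out replicates gave 0 to 2 for 1(2H)-phthalazinone D8 (2 without replicate A), 0 to 1 for the 12 pools against the other levels (1 without replicate A, gabapentin D6 B or gabapentin D8 A) and 0 to 3 for D6 against D8 (3 without 1(2H)-phthalazinone D8 C, and 1 without replicate B, 1(2H)-phthalazinone D6 A, gabapentin D8 C or CON B). The component score D6 minus D8 ran from -19.6 to -17.1 without single replicates, and was -20.8 on the component of all 54 pools. Dapma7bEVm010872_96691 reversed to 0.49 with the XtraC pools alone. The cause of these shifts was not tested.

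The 3 pools per level limit what the tests can show: the SE of probes such as Dapma7bEVm028854_97868 exceeded 1 on the log2 scale, so differences of several-fold in them were not detectable. The same-letter correlation does not establish pairing, so the fit with the replicate block is an alternative only. Library measures did go with the letter, though. Pool A had the lowest top-10 share and the highest TMM scaling factor in each of the 4 groups, in CON and in XtraC. All 4 libraries under 50% of the median total were of letter A. The count for D6 against D8, 0 without the block and 169 with it, depends on how the letter is treated.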

Other observations

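The component probes also varied between DMSO pools of the other 5 exposures. The 3 given here were chosen after their values were seen. Dapma7bEVm028854_97868 ran from 522 to 793 CPM in the 12 control QA libraries (median 701) and from 25.5 to 9952 CPM in the 30 DMSO pools of the other exposures (median 2112). Dapma7bEVm022900_96422 ran from 105 to 166 CPM in the QA libraries (median 129.8) and from 21.0 to 1241 CPM in the DMSO pools (median 540.2). Dapma7bEVm004464_96721 ran from 36.3 to 85.2 CPM in the QA libraries (median 50.9) and from 0 to 2675 CPM in the DMSO pools (median 337). The labels do not say how the QA libraries were made, so the ranges are given side by side with no comparison.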
